A study of Homo sapiens with 16 samples.

Results

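The peaks of the histone deacetylases HDAC1 and HDAC3 in LNCaP prostate cancer cells with a control shRNA were compared with each other, and each class of peak was then looked up in the other lists of the series. All peaks of the HDAC1 list and of the HDAC3 list were members, 16632 and 33964, or 50596 of the 816313 peaks and regions in the 12 lists analysed. A peak was counted as shared when it overlapped a peak of the other deacetylase by 1 bp or more. That gave 7057 HDAC1 peaks with HDAC3, 9575 HDAC1 peaks without HDAC3, 7054 HDAC3 peaks with HDAC1 and 26910 HDAC3 peaks without HDAC1. The shared peaks formed 7057 pairs.

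HDAC1 and HDAC3 are class I histone deacetylases, which take acetyl groups off histone tails. HDAC1 works mainly with its close relative HDAC2 in the NuRD, SIN3 and CoREST complexes, and HDAC3 is the catalytic subunit of the NCOR and SMRT corepressor complexes. Both bind DNA only through partner proteins, and both have often been mapped at acetylated, active promoters and enhancers as well as at repressed genes. HOXB13 is a homeodomain transcription factor of the prostate lineage.

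LNCaP is an androgen-sensitive line from a lymph node metastasis of prostate cancer, and PC-3 is an androgen-independent line from a bone metastasis. The HDAC1, HDAC3, ATAC and HOXB13 control libraries came from LNCaP cells infected for 7 days with the control vector pGIPZ, so the controls also carried a lentivirus. In the other LNCaP libraries HOXB13 was lowered with an shRNA (HDAC3, ATAC and HOXB13), or lowered and replaced by lentiviral HOXB13-WT or HOXB13-G84E (HOXB13). PC-3 cells were given pGIPZ (HOXB13, H3K27ac) or the HOXB13 shRNA (H3K27ac), with no number of days on the labels. HDAC1 and HDAC3 were precipitated with different antibodies, HDAC1 was mapped in the control alone, and the LNCaP H3K27ac libraries were not analysed here. H3K27ac, acetylation of histone H3 at lysine 27, is a mark of active promoters and enhancers, and ATAC-seq marks open chromatin. The acetylation seen here was therefore that of another cell line.

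Each group held 1 library, so there was no replicate check and no test between conditions. The HDAC1 library had 13956537 tags (mapped reads), 3.73% of them in peaks, and peaks 317 bp wide. The HDAC3 library had 21563342 tags, 7.63% of them in peaks, and peaks 471 bp wide. Intervals are 95% intervals that cover counting error or the spread over peaks of 1 library, and neighbouring peaks are not independent. All coordinates are hg19. The part that depth and enrichment had in the differences between the lists was not tested, and values with both lists cut to 300 bp are given for width.

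Of the HDAC1 peaks 42.4% (95% CI 41.7 to 43.2) met an HDAC3 peak, and of the HDAC3 peaks 20.8% (20.3 to 21.2) met an HDAC1 peak. These shares depended on the overlap rule, being 15.4% and 7.53% with peak centres within 100 bp and 55.8% and 26.8% with peaks within 500 bp of each other. With both lists brought to 16632 peaks, 34.3% of each were shared. Sharing was more common among strong peaks in both directions. Peak strength is given as the normalized tag count, the tag number of a peak per 10000000 mapped tags. Over 10 equal groups of HDAC1 peaks ordered by strength, the shared share was 26.6% (24.5 to 28.8) in the weakest and 55.1% (52.7 to 57.6) in the strongest. For HDAC3 the same shares were 4.65% (3.97 to 5.41) and 55.2% (53.5 to 56.9). The strongest HDAC3 peaks were thus shared about as often as the strongest HDAC1 peaks, while in the 3 weakest groups the HDAC3 shares were 4.65%, 6.68% and 7.62%.

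**Figure D1:**
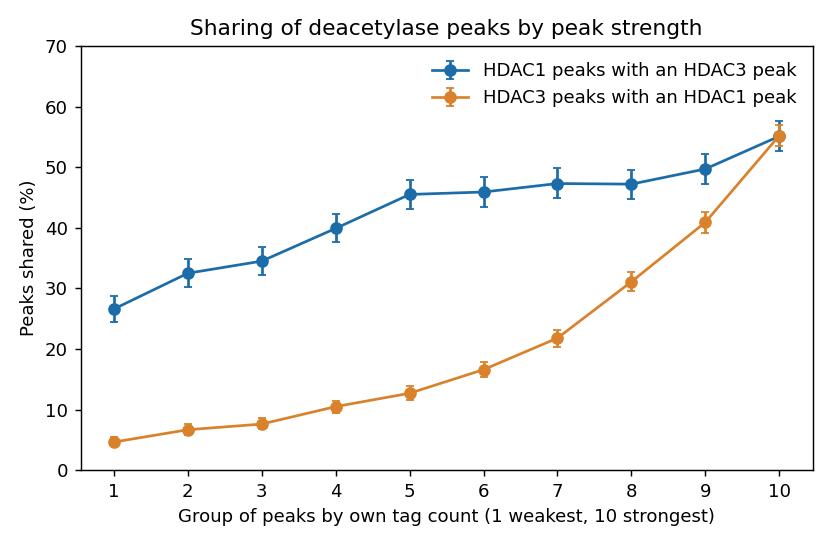
Share of HDAC1 peaks with an HDAC3 peak (blue) and of HDAC3 peaks with an HDAC1 peak (orange), in percent on the vertical axis, over 10 equal groups of each list ordered by normalized tag count. Bars are exact 95% intervals; the HDAC3 curve lies below the HDAC1 curve until the strongest group, where they meet at 55.2% and 55.1%.

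Shared peaks were the stronger ones within each list. The median normalized tag count was 19.3 (95% CI 18.6 to 19.3) at HDAC1 peaks with HDAC3 and 15.8 (15.8 to 15.8) at those without. At HDAC3 peaks it was 22.7 (22.7 to 23.2) with HDAC1 and 13.9 (13.9 to 13.9) without. The classes overlapped widely, with 5th to 95th percentiles of 9.31 to 37.3 at HDAC1 peaks without HDAC3 and 10 to 45.1 at those with it. Those of HDAC3 were 8.81 to 32.5 without HDAC1 and 10.7 to 57 with it. The peaks found with 1 deacetylase alone were also those most often seen in no other list. Of the HDAC1 peaks without HDAC3, 29.6% met none of the other 10 lists, against 3.68% of those with HDAC3. Of the HDAC3 peaks without HDAC1 19% met none, against 2.78% of those with HDAC1. The 10 lists include HDAC3 after HOXB13 knockdown, which met 66.5% of HDAC1 peaks with HDAC3 and 12.7% of those without. For HDAC3 peaks with and without HDAC1 these values were 75.8% and 40.3%. The shares that met none were not taken at equal strength.

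Where peaks were not shared, HDAC1 was usually closer to HDAC3 than HDAC3 was to HDAC1. The centres of shared pairs were a median of 146 bp apart, and 36.3% lay within 100 bp. From an HDAC1 peak without HDAC3 the nearest HDAC3 centre was a median of 7935 bp away, within 1000 bp for 25.3% and within 10000 bp for 54.7%. From an HDAC3 peak without HDAC1 the nearest HDAC1 centre was a median of 42383 bp away, within 1000 bp for 8.19% and within 10000 bp for 21.1%. The HDAC3 list is the longer one, which by itself makes the first distance shorter.

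Open chromatin went with sharing in both lists. A control ATAC peak lay at 43.9% of all HDAC1 peaks and at 41% of all HDAC3 peaks. Among HDAC1 peaks it lay at 61.3% (60.1 to 62.4) of those with HDAC3 and 31.1% (30.2 to 32.1) of those without, a difference of 30.1 percentage points (28.6 to 31.6). Among HDAC3 peaks it lay at 76.4% (75.4 to 77.4) of those with HDAC1 and 31.7% (31.1 to 32.3) of those without, a difference of 44.7 points (43.6 to 45.9). Stronger peaks have ATAC more often, and shared peaks are stronger. Averaged over the 10 strength groups with the weights of the shared peaks, which is called equal strength from here on, the differences were 25.5 and 26.1 points. In the better-scoring 50% of both lists the HDAC1 difference was 20 points, and with equal numbers of peaks the HDAC3 difference was 29.7. At equal strength they had the same direction in each of the 10 groups of both lists. The ATAC peak at a shared HDAC3 peak also had more tags, with a median of 7.2 (6.92 to 7.2) against 5.26 (5.26 to 5.26) at HDAC3 peaks without HDAC1 and 5.26 over the whole ATAC list.

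In the control ATAC list, peaks of 1 deacetylase alone were open about equally often. HDAC1 peaks without HDAC3 and HDAC3 peaks without HDAC1 differed by −0.562 points in their ATAC share (−1.64 to 0.524). With both lists cut to 300 bp around their centres, which takes away the difference in width, the difference was 1.32 points (0.288 to 2.37), and its direction therefore depended on the width. In the ATAC list after HOXB13 knockdown the shares were 22.8% for HDAC1 alone and 28.4% for HDAC3 alone. That difference was −5.64 points (−6.63 to −4.64), and −3.75 (−4.71 to −2.79) with both lists cut to 300 bp.

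Acetylation separated the classes in another order. A PC-3 control H3K27ac region lay at 61.8% of all HDAC1 peaks and 34.7% of all HDAC3 peaks. It lay at 74.1% (73.1 to 75.2) of HDAC1 peaks with HDAC3 and 52.8% (51.7 to 53.8) of those without, a difference of 21.4 points (19.9 to 22.8), or 13.8 at equal strength. This difference was 9.05 points (7.06 to 11) with sharing defined by peak centres within 100 bp, and 12.3 in the better-scoring 50% of both lists. It lay at 74.3% (73.2 to 75.3) of HDAC3 peaks with HDAC1 and only 24.3% (23.8 to 24.8) of those without, a difference of 50 points (48.8 to 51.1), or 38.1 at equal strength. HDAC1 peaks without HDAC3 thus had H3K27ac more often than HDAC3 peaks without HDAC1, by 28.5 points (27.3 to 29.6), and by 29.4 points (28.3 to 30.4) with both lists cut to 300 bp. The acetylated regions met by each class had higher tag counts than the list as a whole. Their median normalized tag count was 88.2 (85.5 to 90.9) at shared HDAC3 peaks, 78.2 (74.2 to 82.2) at HDAC1 peaks without HDAC3 and 63.5 (60.8 to 65.5) at HDAC3 peaks without HDAC1, against 30.7 over the whole H3K27ac list. The regions vary in width, and a wide region is more easily met by any peak. The part of width in these tag counts was not tested. After HOXB13 knockdown in PC-3, a region lay at 62.2% of all HDAC1 and 36.3% of all HDAC3 peaks. By class these shares were 75% and 52.8% for HDAC1 with and without HDAC3, and 75.1% and 26.2% for HDAC3 with and without HDAC1. The order of the classes was thus that of the PC-3 control.

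HOXB13 gave opposite signs for HDAC1 and HDAC3. HOXB13 peaks of the control lay at 10.7% of all HDAC1 and 36.1% of all HDAC3 peaks. HDAC1 peaks with HDAC3 had one at 18% (17.1 to 18.9) and those without at 5.26% (4.82 to 5.73), a difference of 12.7 points (11.7 to 13.7), or 12.4 at equal strength. HDAC3 peaks with HDAC1 had one at 24.6% (23.6 to 25.6) and those without at 39.1% (38.5 to 39.6), a difference of −14.4 points (−15.6 to −13.3). At equal strength this difference was larger, −22.3 points, as it was with equal numbers of peaks (−22.2 points), and in 0 of the 10 strength groups did the shared peaks have HOXB13 more often. In the strongest group the shares were 38.3% with HDAC1 and 54.9% without, and in the weakest 11.4% and 28.7%. HDAC1 peaks without HDAC3 and HDAC3 peaks without HDAC1 differed in this list by −33.8 points (−34.5 to −33), or −30.3 with both cut to 300 bp.

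The HOXB13 peaks themselves were stronger at HDAC3 peaks without HDAC1. Their median normalized tag count was 10.8 (10.8 to 11.1) there, 8.44 (8.15 to 8.73) at HDAC3 peaks with HDAC1 and 8.15 (7.86 to 8.73) at HDAC1 peaks without HDAC3, against 7.28 over the whole HOXB13 list. HOXB13 centres were also closer. Within 100 bp of the peak centre, 21.5% of HDAC3 peaks without HDAC1 had a HOXB13 centre, 11.5% of those with HDAC1, and 1.91% of HDAC1 peaks without HDAC3.

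The re-expressed HOXB13 forms gave the same order of classes. Peaks of HOXB13-WT lay at 12.1% of all HDAC1 and 39.2% of all HDAC3 peaks, and those of HOXB13-G84E, a variant with glutamate in place of glycine, at 10.1% and 34.1%. For HDAC3 peaks with and without HDAC1 the WT shares were 29.3% and 41.8% (difference −12.4 points, −13.6 to −11.2) and the G84E shares 24.4% and 36.6% (−12.2 points, −13.3 to −11). For HDAC1 peaks with and without HDAC3 they were 20.2% and 6.2% with WT, and 16.9% and 5.09% with G84E. The forms were not compared with each other here.

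Peaks in the HOXB13 library after knockdown showed another order, and this is the list in which HOXB13 itself had been lowered. They lay at 11.6% of all HDAC1 and 6.29% of all HDAC3 peaks. By class they lay at 16% (15.2 to 16.9) of HDAC1 peaks with HDAC3, 8.33% (7.79 to 8.91) of HDAC1 peaks without, 17.1% (16.2 to 18) of HDAC3 peaks with HDAC1 and 3.45% (3.23 to 3.67) of HDAC3 peaks without. Among HDAC3 peaks that had HOXB13 in the control, a HOXB13 peak was called again after knockdown at 3.09% (2.77 to 3.44) of those without HDAC1 and 24% (22 to 26.1) of those with it. It was called again with HOXB13-WT at 82.2% (81.5 to 82.9) and 71.3% (69.1 to 73.4), and with HOXB13-G84E at 75.2% and 63.9%. HDAC3 sites without HDAC1 thus had the lower share after knockdown and the higher share with either re-expressed form. Their control HOXB13 peaks were also the stronger ones, and these shares were not taken at equal HOXB13 strength. The control HOXB13 list was called with at most 1 tag per bp, and the knockdown, WT and G84E lists with at most 2. The part of this setting was not tested. Without the peaks that met a HOXB13 peak after knockdown, control HOXB13 lay at 4.24% of HDAC1 peaks without HDAC3 and 39.2% of HDAC3 peaks without HDAC1.

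For HOXB13 of PC-3 cells the difference at HDAC3 peaks had the other sign. A PC-3 HOXB13 peak lay at 16.7% of all LNCaP HDAC1 peaks and 27.5% of all LNCaP HDAC3 peaks. It lay at 37.8% (36.7 to 39) of HDAC3 peaks with HDAC1 and 24.8% (24.2 to 25.3) of those without, a difference of 13.1 points (11.8 to 14.3), where the LNCaP difference was −14.4. At equal strength it was 4.91 points, with shared peaks higher in 7 of the 10 strength groups. HDAC1 peaks with and without HDAC3 had a PC-3 HOXB13 peak at 31.6% and 5.73%. The PC-3 HOXB13 library was made with another antibody than the LNCaP one, and antibody and cell line cannot be told apart.

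**Figure D2:**
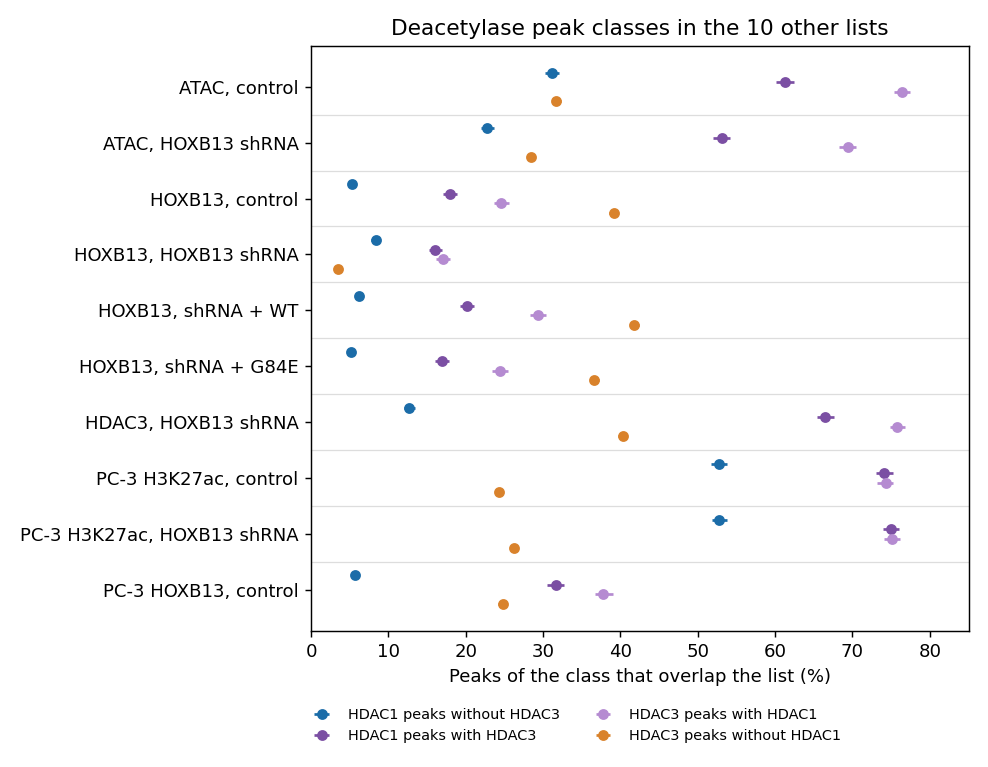
Share of each of the 4 peak classes (in percent, horizontal axis) that overlaps each of the 10 other lists, with exact 95% intervals as bars. Shared peaks (purple) lie to the right for ATAC and H3K27ac, whereas HDAC3 peaks without HDAC1 (orange) lie furthest right for LNCaP HOXB13 in the control and with WT or G84E.

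Combinations of control ATAC, PC-3 H3K27ac and control HOXB13 gave each class its own profile. Of the HDAC3 peaks with HDAC1, 45.5% had ATAC and H3K27ac without HOXB13 and a further 16.4% had all 3. Of the HDAC3 peaks without HDAC1, only 6.87% and 5.31% fell into these groups, while 18.3% had HOXB13 alone, 11.1% HOXB13 with ATAC and 37.9% none of the 3. HDAC1 peaks without HDAC3 had H3K27ac alone at 28.7%, H3K27ac with ATAC at 20.5%, HOXB13 alone at 1.34% and none of the 3 at 37.1%. HDAC1 alone therefore shared with HDAC3 alone the part outside all 3 lists, and differed in whether the rest was acetylated or bound by HOXB13.

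The contrast in HOXB13 also stood among open sites. Where an HDAC3 peak had ATAC, HOXB13 lay at 26% of those with HDAC1 and 51.7% of those without (difference −25.6 points, −27.2 to −24.1), and H3K27ac at 80.9% and 38.4% (42.5 points, 41 to 44). Where it had no ATAC, HOXB13 lay at 20% and 33.2% (−13.2 points, −15.1 to −11.1). Read the other way, an HDAC3 peak with ATAC had HDAC1 at 49.2% (48.1 to 50.3) without HOXB13 and 24.1% (23 to 25.3) with it. An HDAC3 peak with both ATAC and H3K27ac had HDAC1 at 57.1% (56 to 58.2), one with ATAC alone of that pair at 16.4%, one with H3K27ac alone of it at 21.2%, and one with neither at 4.95% (4.62 to 5.3). For HDAC1 peaks, HOXB13 went with more HDAC3: 79.8% (77.2 to 82.2) of HDAC1 peaks with ATAC and HOXB13 had HDAC3, against 55.7% (54.5 to 57) with ATAC and no HOXB13.

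**Figure D3:**
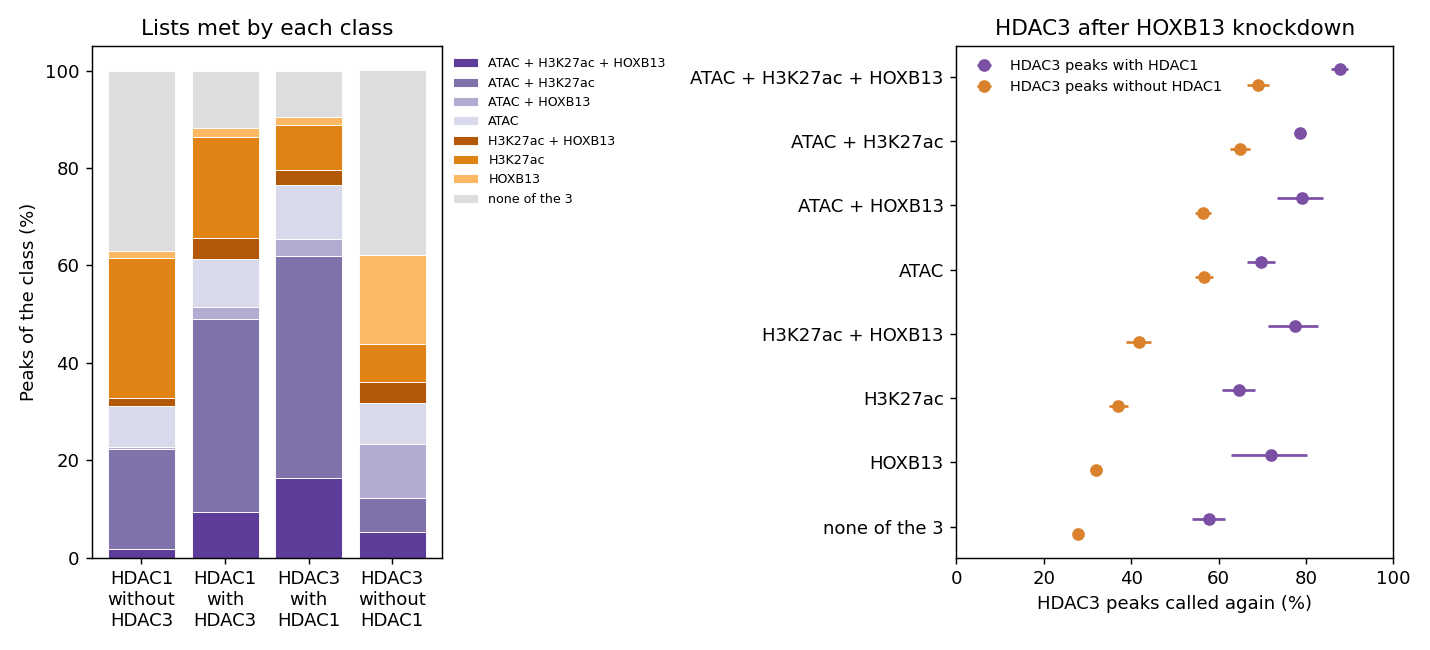
Left, share of each class (percent) in each combination of control ATAC, PC-3 control H3K27ac and control HOXB13. Right, share of HDAC3 peaks called again in the HDAC3 library after HOXB13 knockdown for each combination, with (purple) and without HDAC1 (orange) and exact 95% intervals; the purple point is higher in each of the 8 rows, from 87.8% against 69.1% at the top to 57.8% against 27.9% at the bottom.

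HDAC3 peaks that also had HDAC1 were more often called again in the HDAC3 library after HOXB13 knockdown. That list met 47.7% of all control HDAC3 peaks and 35.5% of the HDAC1 peaks. It met 75.8% (74.8 to 76.8) of HDAC3 peaks with HDAC1 and 40.3% (39.7 to 40.9) of those without, a difference of 35.5 points (34.3 to 36.7), which was 18 points at equal HDAC3 strength, 19.8 in the better-scoring 50% of both lists and 22.8 with equal numbers of peaks. The direction was the same in each of the 8 combinations of ATAC, H3K27ac and HOXB13, where the shares ranged from 57.8% to 87.8% with HDAC1 and from 27.9% to 69.1% without. These shares by combination are not at equal strength. In the group with none of the 3 lists, for example, the median tag count was 15.6 with HDAC1 and 12.5 without. HDAC1 peaks that had no control HDAC3 peak met an HDAC3 peak after knockdown at 12.7% (12 to 13.4), and those that had ATAC at 19.1%.

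HDAC3 density at peaks called again differed little between peaks with and without HDAC1. Because the peaks were narrower after knockdown (365 against 471 bp), levels were compared as tags per kb, and the HDAC3 fragment length (146 bp in the control, 364 bp after knockdown) differed too. The median log2 ratio of knockdown to control density was −0.11 (−0.13 to −0.095) with HDAC1 and −0.057 (−0.066 to −0.041) without. Without HDAC1 it was −0.12 (−0.14 to −0.10) at peaks with HOXB13 and −0.0052 (−0.023 to 0.015) at peaks without it. With HDAC1 the corresponding values were −0.14 (−0.17 to −0.10) and −0.10 (−0.13 to −0.085). Density 2-fold lower or more was found at 5.07% of all peaks called again, at 5.8% with HDAC1 and at 4.71% without. The spread over single peaks was much wider than these medians, with 5th to 95th percentiles of −1.06 to 0.74 with HDAC1 and −0.98 to 0.80 without.

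Seen from the other lists, sites with both deacetylases were few at HOXB13 peaks and many at acetylated regions. Of the 91430 control HOXB13 peaks 12% (11.8 to 12.2) had HDAC3 alone, 1.37% (1.3 to 1.45) both and 0.572% (0.524 to 0.623) HDAC1 alone. In the strongest 10% of HOXB13 peaks these shares were 35.7%, 2.68% and 0.908%. Of the 50352 PC-3 control H3K27ac regions 14.1% (13.8 to 14.4) had both deacetylases, 8.71% HDAC3 alone and 5.06% HDAC1 alone, and in the strongest 10% of regions 37.8%, 13.4% and 7.94%. A region counted as having both here may hold them at separate peaks. Regions with both were also wider, with a median of 2462 bp against 1577 bp for regions with neither. Of the 37073 control ATAC peaks 11.1% had both, 31% HDAC3 alone and 10.6% HDAC1 alone, and in the strongest 10% 22.7%, 36.9% and 11%. The share with both was highest in the strongest group of each of the 3 lists, and of the 3 states HDAC3 alone was the commonest in each of the 10 strength groups of ATAC and HOXB13 peaks.

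**Figure D4:**
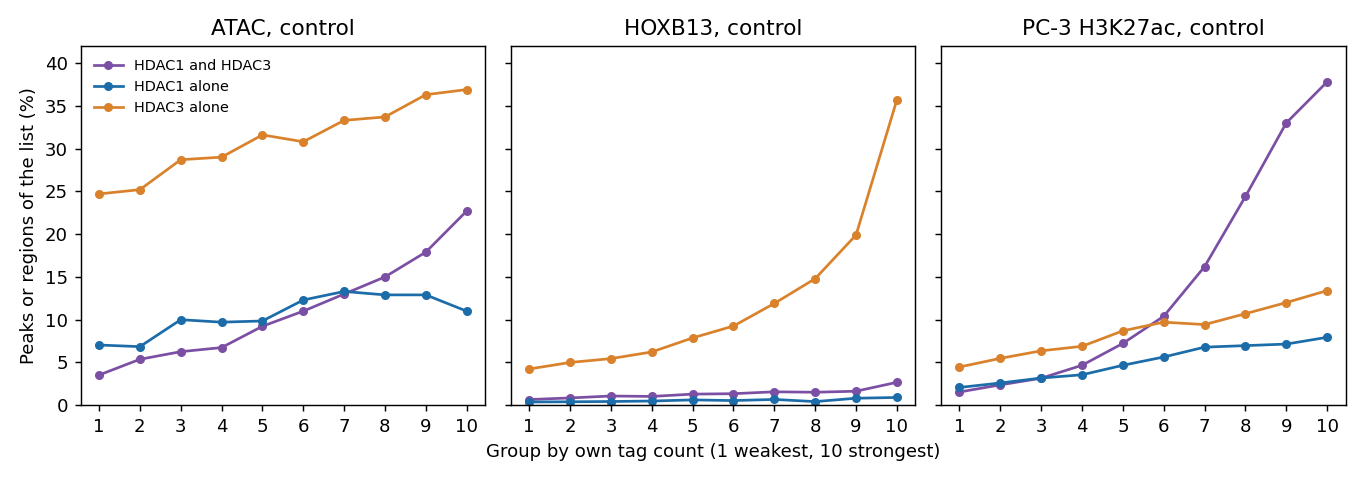
Share of control ATAC peaks, control HOXB13 peaks and PC-3 control H3K27ac regions (percent) that have both deacetylases (purple), HDAC1 alone (blue) or HDAC3 alone (orange), over 10 equal groups of each list by its own tag count. Of the states shown, the commonest in the strongest group was HDAC3 alone for ATAC (36.9%) and HOXB13 (35.7%) and both deacetylases for H3K27ac (37.8%). Peaks and regions with neither deacetylase are not among these states.

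The ATAC peaks with a deacetylase also differed in how often they were called again after HOXB13 knockdown. An ATAC peak after knockdown lay at 35.6% of all HDAC1 and 36.9% of all HDAC3 peaks. Of the control ATAC peaks, 64.4% (62.9 to 65.9) with both deacetylases were called again, 59.3% (58.4 to 60.2) with HDAC3 alone, 45.4% (43.8 to 46.9) with HDAC1 alone and 41.5% (40.8 to 42.3) with neither. Their strengths differed, with a median tag count of 6.64 with both, 5.53 with either alone and 4.7 with neither. Weighted to the ATAC strength of the peaks with both, the shares were 66.4% with HDAC3 alone, 53% with HDAC1 alone and 57% with neither. At equal ATAC strength the peaks with HDAC3, with or without HDAC1, were therefore called again more often than those without it, and the peaks with HDAC1 alone were not above those with neither.

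At shared sites the levels of the deacetylases were only loosely related. Over the 7057 pairs, Spearman's rho between HDAC1 and HDAC3 normalized tag counts was 0.282, a description over sites of a single pair of libraries. It was 0.26 over the 5759 pairs with no HOXB13 peak after knockdown. The median log2 ratio of HDAC1 to HDAC3 density was 0.32 (0.30 to 0.35), with 5th to 95th percentiles of −1.11 to 1.69. Its level depends on antibody, enrichment and peak width, so that 0 does not stand for equal binding, and the ratio is used only to compare sites. The median was 0.16 with equal numbers of peaks and 0.51 in the better-scoring 50% of both lists. It was 0.082 (0.028 to 0.12) at pairs with a control HOXB13 peak and 0.39 (0.36 to 0.43) at pairs without. It was also lower at pairs called again in HDAC3 after knockdown, 0.22 (0.19 to 0.25), than at those not called again, 0.67 (0.62 to 0.72). HDAC3 in the control enters both sides of that last comparison, since strong HDAC3 peaks are called again more often.

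Pairs leaning to one deacetylase were met by the other lists at different rates. The ratio was at least 2-fold above its median at 803 pairs, 11.4% of them, and at least 2-fold below it at 848 pairs, 12%. Control HOXB13 lay at 20.9% of the pairs leaning to HDAC1, 24% of those within 2-fold and 40.2% of those leaning to HDAC3. PC-3 HOXB13 lay at 27%, 37.6% and 55.7%. Control ATAC lay at 77.8%, 78.5% and 83.4%, in the same order. PC-3 H3K27ac went the other way, at 81.4%, 73.7% and 72.3%. Pairs leaning to HDAC3 had a median HDAC3 tag count of 42.7 and those leaning to HDAC1 one of 14.8, so these shares were not taken at equal strength.

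**Figure D5:**
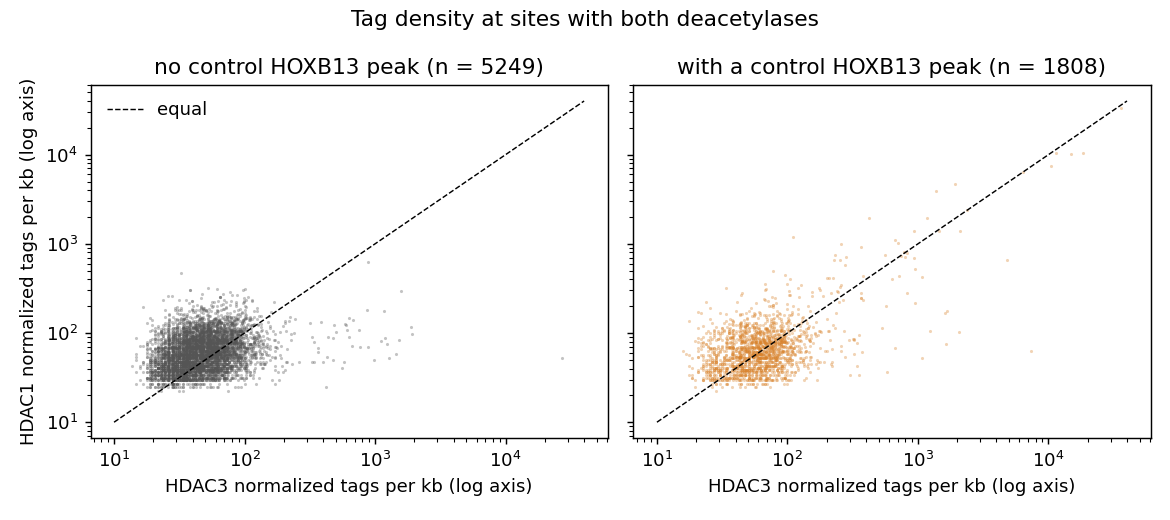
HDAC1 against HDAC3 normalized tags per kb at the 7057 shared pairs, both on log axes, for the 5249 pairs without (left, grey) and the 1808 pairs with (right, orange) a control HOXB13 peak. Each point is a pair and the dashed line marks equal density; most pairs form a broad cloud, and the points at the upper right are sites that carry very high tag counts in both libraries.

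Within a shared pair the HDAC3 centre was more often the one closer to open chromatin and to HOXB13. Among the 5837 pairs with an ATAC centre within 500 bp of either peak centre, HDAC3 was the nearer in 62.4% (61.1 to 63.6) of the 5820 untied ones, at a median of 86 bp against 134 bp for HDAC1. For control HOXB13 it was the nearer in 67% (64.9 to 69) of 2065 untied pairs, and for PC-3 HOXB13 in 70.9% (69.2 to 72.6) of 2834. The HDAC1 library had the longer estimated fragment (316 against 146 bp) and fewer tags, and their part in the position of its peak centres was not tested.

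Shared sites were ranked by the authors' score within each list and then ordered by the lower of their ranks. The 5 highest on chromosomes 1 to 22 and X were called in 8 or all 10 of the other lists. The first in both was chr1:121485024-121485340, next to the centromere, with 10519.8 normalized tags for HDAC1 and 16809.1 for HDAC3. It was called in each of the other 10 lists, with 9132.2 tags for HOXB13 in the control and 15711.1 after knockdown, and with 1519.4 for control ATAC. Of the other 4 sites, a pair lay on chromosome 10 at chr10:42599628-42599944 (3351.1 for HDAC1 and 8629.0 for HDAC3) and chr10:42596902-42597218 (3233.6 and 7064.3). The remaining ones were chr19:27732076-27732392 (2381.7 and 4928.3) and chr7:61969087-61969403 (2019.1 and 3021.3). Each of these 5 sites also had a HOXB13 peak after knockdown, higher than the control one. The knockdown HOXB13 list was called with at most 2 tags per bp and the control list with at most 1. No input library was named in the peak calls, and whether these sites carry bound protein was not tested. Peaks holding more tags than start positions numbered 11 for HDAC1, all of them shared, and 51 for HDAC3, of which 37 were shared.

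Among shared sites with no HOXB13 peak after knockdown, the highest by the lower of its score ranks was chr5:10737-11053, ranked 44 for HDAC1 and 12 for HDAC3. It had 94.6 normalized tags for HDAC1, 746.6 for HDAC3 in the control and 562.2 for HDAC3 after knockdown. At chr3:20227455-20227771 the values were 73.8 for HDAC1, 177.2 for HDAC3 and 40.3 for HDAC3 after knockdown, with control ATAC at 13.8 and PC-3 H3K27ac at 101.6. At chr10:51827567-51827883 they were 55.9, 551.4 and 83.6. There and at chr5:10737-11053 the control HDAC3 peak held more tags than start positions.

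The pair that leaned most to HDAC1 was chr6:153303843-153304159, with 149.8 normalized tags for HDAC1 and 15.3 for HDAC3 (log2 density ratio 3.86, 95% CI 3.33 to 4.44). It had control ATAC at 26 tags, ATAC after knockdown at 22 and PC-3 H3K27ac at 173.8, and no HOXB13 peak. A second, chr10:5454478-5454794, had 62.3 and 7.88 (3.55, 2.79 to 4.40), with control ATAC at 8.3 tags and PC-3 H3K27ac at 56.1. It had HOXB13 peaks with G84E (7.02) and in PC-3 (7.95). At chr8:43094654-43094970 the HDAC1 and HDAC3 values were 374.0 and 52.4, with HOXB13 at 701.3 in the control and 417.0 after knockdown. They were 83.1 and 12.1 at chr10:129924473-129924789, with no HOXB13 peak. At chr2:242640919-242641235 they were 74.5 and 11.1, with HOXB13 after knockdown (6.14), with WT (4.22) and in PC-3 (9.76). 

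The pair that leaned most to HDAC3 was chr17:72510457-72510927, with 12737.8 normalized tags for HDAC3 and 16.5 for HDAC1 (log2 density ratio −9.02, −9.68 to −8.44). Its HDAC3 count after knockdown was 1492.7, and it had no control ATAC and no control HOXB13 peak. At chr7:915787-916257 the values were 3471.6 for HDAC3, 20.1 for HDAC1 and 268.7 for HDAC3 after knockdown. At chr11:65479232-65479702 they were 679.9, 18.6 and 98.1, at chr6:33385911-33386381 599.2, 16.5 and 127.0, and at chr14:102414396-102414866 770.3, 23.6 and 160.0. At each of these 5 sites the HDAC3 count was lower after knockdown. The control HDAC3 peak at each of them was among the 51 that held more tags than start positions. The interval above treats such tags as independent, and whether these sites carry bound protein was not tested. The sites were picked for a high control HDAC3 count against HDAC1, which by itself makes a lower count in another HDAC3 library more likely.

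On chromosomes 1 to 22 and X the highest HDAC1 peak without HDAC3 was chr10:42544632-42544948, with 265.1 normalized tags, and 3 of the 5 highest had a HOXB13 peak after knockdown. Of the HDAC1 peaks without HDAC3, those at the top of the list outside HOXB13 knockdown peaks were acetylated. At chr1:120838881-120839197 HDAC1 had 136.9 normalized tags and PC-3 H3K27ac 191.1, and an HDAC3 peak was called after knockdown with 20.1. At chr5:892930-893246 HDAC1 had 111.8, H3K27ac 286.0 and control ATAC 8.03. At chr5:149737393-149737709 the values were 110.3, 64.2 and 6.92. None of the 3 had a HOXB13 peak in any of the 5 HOXB13 lists, 1 of which was used to pick them. In the whole class, HOXB13 peaks of the control, WT, G84E and PC-3 lists lay at 5.26%, 6.2%, 5.09% and 5.73%. PC-3 control H3K27ac lay at 83.2% of HDAC1 peaks without HDAC3 in the strongest of the 10 strength groups and at 18.9% in the weakest. In the strongest group it lay at 90.5% of HDAC1 peaks with HDAC3. In the strongest HDAC3 group it lay at 54.7% of HDAC3 peaks without HDAC1.

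On the same chromosomes the highest HDAC3 peak without HDAC1 was chr10:42395868-42396338, with 3827.8 normalized tags, and all of the 5 highest had a HOXB13 peak after knockdown. The 3 strongest HDAC3 peaks without HDAC1 outside HOXB13 knockdown peaks had far fewer tags after knockdown. At chr13:111704193-111704663 HDAC3 had a control count of 722.5 normalized tags, against 78.3 after knockdown, with no peak in any list other than HDAC3. At chr1:155053309-155053779 the counts were 523.6 and 76.8, with control HOXB13 at 9.02. At chr14:20923082-20923552 they were 490.2 and 93.9, with control ATAC at 8.03 and H3K27ac at 267.3. As above, these peaks were picked for their high count in the control. Each HDAC3 peak named in this paragraph was also among the 51 that held more tags than start positions. Whether they carry bound protein was not tested.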

How the data were processed

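HDAC1, HDAC3 and HOXB13 ChIP-seq, H3K27ac ChIP-seq and ATAC-seq peak lists were used as deposited, 1 library per group. The submitters' processing notes name Bowtie2, HOMER 4.2 and hg19. The authors called peaks per library with HOMER findPeaks and with no input library named, per the file headers. HDAC1, HDAC3, HOXB13 and ATAC peaks were called in factor style (fixed width, false discovery rate of 0.001, 4-fold over the surrounding 10000 bp, local p of 0.0001), and H3K27ac regions in histone style at a Poisson p of 0.001, per the file headers. The maximum number of tags considered per bp was 2 for the LNCaP HOXB13 lists after knockdown, with WT and with G84E. It was 1 for the other lists. The signal is the deposited normalized tag count, scaled by the authors to 10000000 tags. The deposited findPeaks score was used only to rank peaks, and the authors' fold over the local background (a ratio) and focus ratio (a fraction) were used only to describe the HDAC1 and HDAC3 lists. Every value under 10 in both lists came out as a whole number of tags within 0.1.

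The members, the lists they were compared with and the measures were chosen with earlier results of these data known. Overlap was at least 1 bp, and where a peak met several the highest tag count was used. Density is normalized tags per kb of peak. Shares have exact (Clopper-Pearson) intervals, differences of shares Newcombe intervals, medians order-statistic intervals, and ratios at single sites exact binomial intervals from recovered tags, all at 95%. They cover counting error only, and tags are not shown to be independent molecules. Values at equal strength were averaged over 10 equal groups of tag count with the weights of the shared peaks, or, for ATAC peaks called again, of the ATAC peaks with both deacetylases. With 1 library per group no test between conditions was made. Named sites were the 5 shared sites highest by the lower of their score ranks in the lists, the 5 highest and 5 lowest density ratios among pairs with at least the median tag count in 1 list, the 5 strongest peaks of each deacetylase alone, and the 3 strongest of each class with no HOXB13 peak after knockdown, on chromosomes 1 to 22 and X. The alternatives were other overlap rules, the better-scoring 50% of both lists, equal numbers of peaks, leaving out peaks that met a HOXB13 peak after knockdown, and equal strength. For the density ratio, pairs with at least the median tag count in both lists were used in place of equal strength. Cutting both lists to 300 bp was added after seeing the data. The 1 bp overlap and the Newcombe and median intervals were tested on simulated data, and the other steps were not. Gene names, promoters and sequences at the peaks were not analysed here, since the reference tables used another build. Calculations used Python 3.11.15, numpy 2.4.6, pandas 2.3.3, scipy 1.17.1 and matplotlib 3.10.9.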

Additional observations from a re-analysis of the deposited data

How the results depend on the processing

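Of 88 values under alternative settings, 34 moved by less than the counting interval and 54 moved further. None of the differences or log2 ratios changed direction. The shared shares among the 88 are percentages and could not change direction. In the order used below, the results are the shared share of HDAC1 and of HDAC3 peaks, the differences with minus without HDAC1 among HDAC3 peaks (ATAC, HOXB13, H3K27ac, HDAC3 called again), the differences with minus without HDAC3 among HDAC1 peaks (ATAC, H3K27ac, HOXB13), and the median log2 density ratio. Values not given moved by less than the interval.

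With peak centres within 100 bp, the shared shares were 15.4% and 7.53%, the differences among HDAC3 peaks 36.8, −11.5, 37.9 and 32.1 points, those among HDAC1 peaks 27.7 (ATAC) and 9.05 (H3K27ac), and the ratio 0.254. With an overlap of 50% of the shorter peak they were 31.2% and 15.3%, then 41.8 (ATAC), 44.9 (H3K27ac) and 34.3 (called again), 15.7 (H3K27ac at HDAC1) and 0.29. With peaks within 500 bp they were 55.8% and 26.8%, then 55.3 (H3K27ac) and 34 (called again), 31.3 (H3K27ac) and 10.4 (HOXB13) at HDAC1, and 0.374. In the better-scoring 50% of both lists the differences were 29.9 (ATAC), −18.7 (HOXB13) and 19.8 (called again) at HDAC3, 20 (ATAC) and 12.3 (H3K27ac) at HDAC1, and the ratio 0.511. With equal numbers of peaks the shares were 34.3% and 34.3%, the differences 29.7, −22.2, 43.4 and 22.8 at HDAC3, 25.7 (H3K27ac) and 14.2 (HOXB13) at HDAC1, and the ratio 0.159. Without peaks that met a HOXB13 peak after knockdown the shares were 39.2% and 18.1%, and the HOXB13 differences −16.5 at HDAC3 and 11.4 at HDAC1. At equal strength the differences were 26.1, −22.3, 38.1 and 18 at HDAC3, 25.5 (ATAC) and 13.8 (H3K27ac) at HDAC1. The ratio was not averaged in this way. Its median was 0.481 over the 3651 pairs with at least the median tag count in both lists. With both lists cut to 300 bp the shares were 36.9% and 18.1%, and the differences 39.2 (ATAC) and 47.6 (H3K27ac) at HDAC3 and 18.3 (H3K27ac) at HDAC1.

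No paired analysis was possible because each group held 1 library. For the same reason no replicate was left out, and the overlap between repeat libraries of HDAC1 or of HDAC3 is not known. A peak called for 1 deacetylase alone need not lack the other, since the HDAC1 library had fewer tags and a smaller share of them in peaks. H3K27ac came from PC-3 cells.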

Other observations

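Acetylated regions with a peak of 1 deacetylase alone often held the other one elsewhere, at a shared pair or at a peak of its own. Of the 50352 PC-3 control H3K27ac regions, 4797 had an HDAC1 peak without HDAC3, and 47% of these held HDAC3 elsewhere in the same region. Of the 6408 regions with an HDAC3 peak without HDAC1, 31.8% held HDAC1 elsewhere in the region. The acetylated regions met by deacetylase peaks had a median width of 2364 bp at HDAC3 peaks with HDAC1 and 2551 bp at HDAC1 peaks without HDAC3. Over all regions it was 1785 bp. The widest region met was taken once per deacetylase peak, and a wide region is more easily met by any peak. A larger median therefore follows from this count alone, and any further difference was not tested.

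Sharing differed by chromosome. On chromosome 19 49.4% (95% CI 46.3 to 52.5) of 1031 HDAC1 peaks and 39.8% (37.1 to 42.5) of 1279 HDAC3 peaks were shared, against 42.4% and 20.8% over the whole lists. The lowest HDAC3 share on chromosomes 1 to 22 and X was that of chromosome 13, at 15.1% (12.5 to 18), and HDAC1 was shared at 41.5% there.

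Among the peaks off chromosomes 1 to 22 and X, the highest HDAC3 peak without HDAC1 lay on the mitochondrial sequence, with 16638.9 normalized tags. It held more tags than start positions and had no peak in the HDAC3 library after knockdown. The highest HDAC1 peak without HDAC3 lay on an unplaced sequence, with 307.4 normalized tags.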
